A study of Mus musculus with 3 samples.

Results

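Cyp2b9 is a cytochrome P450 of the mouse liver, encoded on chromosome 7 at 26173411 to 26210661 on the plus strand (mm10, GENCODE release M21). Among primary hepatocytes of mice whose 60% high fat diet contained 0.25% hyodeoxycholic acid, a bile acid (HFD_HDCA), 282 of 1652 cells held at least 1 Cyp2b9 transcript once every cell had been reduced to 1000 transcripts. That was 17.1% of the cells (95% exact binomial interval 15.3 to 19.0%), and the 1370 others, with 0 Cyp2b9 transcripts, are called Cyp2b9-zero cells here. The whole series held 4198 cells under the same filters. The members were chosen by a measured value, so Cyp2b9 itself is described and takes no part in the comparison of the cells.

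Transcripts were counted as unique molecular identifiers (UMIs) in droplet 3′ libraries of wild-type mice, after 12 weeks on the diets. The other libraries came from mice on the 60% high fat diet alone (HFD) and on a normal diet (ND), and each diet had 1 library. The sources used here state neither the number of mice per library nor their sex. The comparison is between cells of 1 library, and cells are not replicates. No test was therefore run, and every interval covers counting error only.

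Hepatocytes are arranged along the liver lobule between the portal vessels, which bring blood in, and the central vein, which drains it. Periportal cells are known for urea synthesis, gluconeogenesis and amino acid breakdown. Pericentral cells are known for glutamine synthesis and for many cytochrome P450 enzymes that oxidise drugs, alcohol and fatty acids. Cyp2b9 is known as a more strongly expressed enzyme in female than in male mouse livers, and its relative Cyp2b10 is the classical target of the nuclear receptor CAR.

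In the 3 libraries, 1652 HFD_HDCA, 1275 HFD and 1271 ND cells passed the filters, with median depths of 2863.5, 2604 and 2354 UMIs. The HFD_HDCA and HFD libraries shared 6 cell barcodes, HFD_HDCA and ND shared 10, and HFD and ND shared 16. Cyp2b9 was found in 4 of the HFD cells (0.314%, 0.0855 to 0.801%) and in 0 of the ND cells, which allows a share of up to 0.236%. Its level was 230.0 counts per 1000000 nuclear-encoded UMIs (CPM) in the HFD_HDCA cells, 3.58 CPM in the HFD cells and 0 in the ND cells. With all UMIs in place of 1000, 590 HFD_HDCA cells (35.7%), 14 HFD cells (1.10%) and 1 ND cell (0.0787%) held the transcript.

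Most members lie at the threshold. Of the 282 positive cells 231 held exactly 1 Cyp2b9 UMI, 46 held 2 and 5 held at least 3, with a maximum of 5. Just outside the threshold, 308 of the Cyp2b9-zero cells (22.5%) held the transcript among the UMIs that the thinning had not drawn. The counts were somewhat more uneven than a Poisson spread at their mean of 0.206 UMIs, with a variance 1.19 times the mean. In the UMIs not drawn, Cyp2b9 stood at 409 CPM (357 to 466) in the positive cells and at 157 CPM (143 to 172) in the Cyp2b9-zero cells, a ratio of 2.60. The split is therefore between a group richer and a group poorer in the transcript, and the poorer group includes cells that held it. Whether the other Cyp2b9-zero cells lacked the transcript was not tested.

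The positive cells carried the hepatocyte programme. All 20 hepatocyte markers were found in more than 50% of them, the lowest being Hpx, the haem carrier hemopexin, in 55.7%. The summed hepatocyte markers stood at 169027 CPM in positive cells and at 175222 CPM in Cyp2b9-zero cells. Before thinning the median depth was 2706 UMIs in positive cells and 2882.5 in Cyp2b9-zero cells. The median number of genes after thinning was 568 in positive and 555 in Cyp2b9-zero cells, and the mitochondrial share of their UMIs was 9.77% in positive and 10.7% in Cyp2b9-zero cells.

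Markers of other liver cell types were counted mostly in Cyp2b9-zero cells, which made up 1370 of the 1652 cells. The positive cells held fewer nuclear-encoded UMIs in total, 254095 against 1223782, so more markers can be at 0 in them. Kupffer cell markers, those of the resident macrophages, summed to 3.94 CPM in positive cells, with 16 of 17 at 0, and to 466 CPM in Cyp2b9-zero cells. Endothelial markers summed to 126 CPM in positive cells, with 16 of 20 at 0, and to 316 CPM in Cyp2b9-zero cells. Of the 32 endothelial UMIs in positive cells 28 were of 1 gene, Dpp4, so the sum there rests on that gene. These counts came from few cells, since 1 positive and 28 Cyp2b9-zero cells held at least 3 UMIs of such markers. The positive share of these 29 cells was 3.45%, with an interval (0.0873 to 17.8%) that includes the 17.1% of all cells. Without those 29 cells Kupffer markers were at 3.95 CPM in positive and 10.0 CPM in Cyp2b9-zero cells, and endothelial markers at 118 CPM in positive and 93.5 CPM in Cyp2b9-zero cells. In the 28 cells with at least 10 such UMIs, 0 held Cyp2b9 in their thinned UMIs, which allows a share of up to 10.7%, and 0 in all of their UMIs. Their median depth was 1419 UMIs. Stellate markers stood at 7.87 CPM in positive cells and 40.0 CPM in Cyp2b9-zero cells, cholangiocyte markers at 59.0 and 73.5 CPM, lymphocyte markers at 7.87 and 10.6 CPM and erythroid markers at 63.0 and 66.2 CPM in the same order.

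Cyp2b9-positive cells lay towards the pericentral end of the zone axis. Each cell was given a zone score, the mean standardised level of 12 pericentral genes minus that of 12 periportal genes, none of them a Cyp2b gene. The score averaged 0.42 ± 0.85 in positive cells and -0.09 ± 0.93 in Cyp2b9-zero cells (SD over cells), a difference of 0.50. It averaged 0.35 in cells with 1 Cyp2b9 UMI and 0.71 in the 51 cells with at least 2, and 74.8% of positive cells were above the median of the Cyp2b9-zero cells.

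The 1652 cells were cut into 5 bins of equal size along the score, from bin 1 at the periportal end to bin 5 at the pericentral end, and the share of Cyp2b9-positive cells was larger in each bin towards the central end. It was 6.34% (3.97 to 9.53%) in bin 1, 10.6% in bin 2, 17.5% in bin 3, 21.5% in bin 4 and 29.4% (24.5 to 34.6%) in bin 5. Intervals of neighbouring bins overlapped, and those of bins 1 and 5 did not. In the UMIs that the thinning had not drawn, Cyp2b9 stood at 66.4, 79.0, 216, 295 and 446 CPM in the same order. The 28 cells with at least 10 UMIs of other cell types' markers held 0 Cyp2b9 UMIs, which allows up to 88.2 CPM. Pooled over depths, bins 1 and 2 were not told apart from that limit. Those 28 cells were shallow, however, with a median of 1419 UMIs. Among cells under 2000 UMIs the undrawn values were 200, 361, 258, 210 and 420 CPM from bin 1 to bin 5. These intervals overlapped, and only that of bin 1 (24.2 to 722 CPM) reached below 88.2 CPM.

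**Figure D1:**
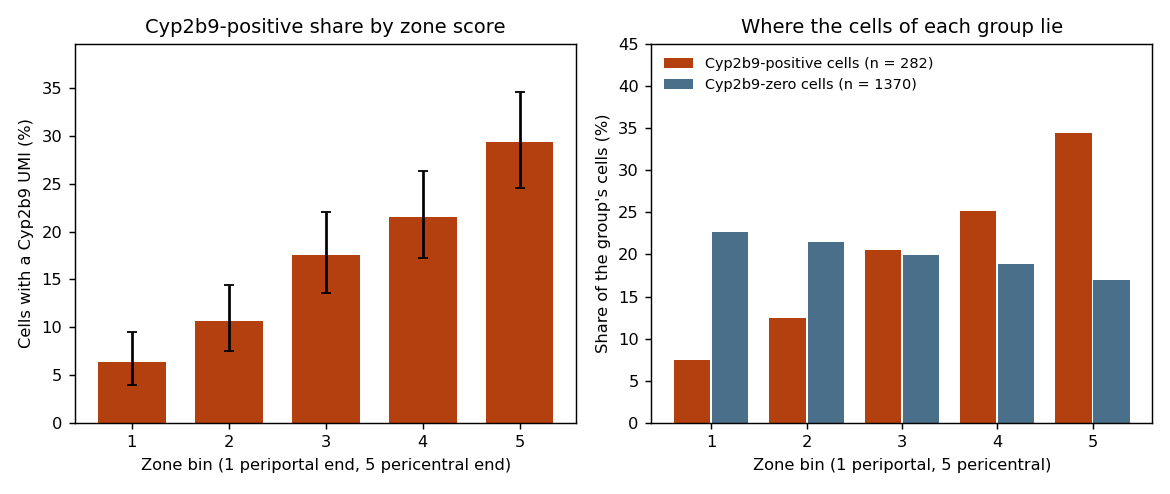
Left, the share of HFD_HDCA cells with at least 1 Cyp2b9 UMI after thinning (%) in each of 5 bins of the zone score, with 95% exact binomial intervals; right, the share of each group's cells (%) that lies in each bin. The Cyp2b9-positive share was 6.34% at the periportal end and 29.4% at the pericentral end.

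Depth differed between the bins. The median depth before thinning was 4907, 3666.5, 1495, 1625 and 3015 UMIs from bin 1 to bin 5. Among the 1026 cells with at least 2000 UMIs the Cyp2b9-positive shares were 6.27%, 8.68%, 19.2%, 31.4% and 32.6% in that order, and the score difference was 0.74. Among the 626 cells with fewer UMIs the shares were 7.14%, 15.9%, 16.6%, 14.5% and 22.6%, their intervals overlapped, and the score difference was 0.12. The shallower cells spread less along the score, with an SD of 0.64 in positive and 0.62 in Cyp2b9-zero cells, against 0.95 and 1.03 in the deeper cells, although all were thinned to the same depth. The shares of positive cells were nearly equal, 16.5% of the shallower and 17.4% of the deeper cells. The part of depth in the zone pattern was not tested beyond this split.

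Single zone genes mostly gave the same order. The share of Cyp2b9-positive cells was higher in cells with than in cells without a UMI of the gene for 12 of 12 pericentral genes of the score, and lower for 11 of 12 periportal ones. Pck1, an enzyme of gluconeogenesis, went the other way, with 17.2% in cells with it and 15.9% in cells without. The intervals with and without the gene overlapped for Pck1 and for several others, among them Glul, Lect2, Mgst1, Ass1 and Cps1. The genes given next had intervals that did not overlap. Cyp2b9 was found in 21.9% (19.5 to 24.3%) of the 1175 cells with a UMI of Cyp2e1, the pericentral enzyme that oxidises ethanol, and in 5.24% (3.42 to 7.64%) of the 477 cells without. It was found in 25.9% of cells with Cyp2c29, a pericentral drug-metabolising P450, and in 13.0% of those without. The share was 9.11% in cells with the periportal P450 Cyp2f2 and 19.5% in cells without. For Etnppl, a periportal enzyme that breaks down phosphoethanolamine, it was 6.56% with and 18.4% without.

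Glul gave no stable value. This gene encodes glutamine synthetase and marks the innermost hepatocytes around the central vein. Cyp2b9 was found in 23 of 124 Glul-positive cells (18.5%, 12.1 to 26.5%) and in 17.0% of the 1528 cells without Glul. Over 20 draws of the 1000 UMIs, with the cells split anew in each, the share was 17.7 to 32.8% in cells with Glul and 14.8 to 17.6% in cells without, and it was higher with Glul in 20 of the 20 draws. Within bin 5 it was found in 26.0% of the 50 cells with Glul and in 30.0% of the 280 cells without. Glul itself stood at 197 CPM in positive cells and at 196 CPM in Cyp2b9-zero cells (log2 ratio 0.02, -0.46 to 0.45). Over the 20 draws its log2 ratio ran between -0.25 and 2.02 with a median of 0.91, and it was 1.38 in cells thinned to 500 UMIs and 1.83 at 2000 UMIs. The value near 0 therefore lies at the low end of the draws.

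Levels of the other genes were then compared between the groups, with Cyp2b9 left out. Of 1120 genes with at least 200 UMIs over both groups, 21 (1.88%) were at least 1.5-fold higher in positive cells and 22 (1.96%) at least 1.5-fold lower. The counting intervals of all 43 lay on 1 side of equality, and the median log2 ratio of all measured genes was 0.02. Of the 21 higher genes 11 were on the pericentral lists, and of the 22 lower genes 6 were on the periportal lists and 16 on no zone list, while these lists hold 58 of the 1120 genes. Within the Cyp2b9-zero cells alone, 20 of the 21 higher genes were higher in bin 5 than in bin 1, against 645 of all 1120. Of the 22 lower genes, 15 were higher at the periportal end, against 475 of all 1120. Of these genes 6 of the 21 and 5 of the 22 belong to the score that set the bins. Their order between the bins therefore followed from the score.

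Which genes passed 1.5-fold depended in part on the draw of the 1000 UMIs. Over the 20 draws, which were chosen after seeing the data, 21 to 38 genes were at least 1.5-fold higher and 14 to 28 lower. In the 19 draws other than the one reported, 13 to 17 of the 21 higher genes and 8 to 12 of the 22 lower genes were past 1.5-fold again. The zone score difference was 0.49 to 0.67, and the Cyp2b9-positive share 3.63 to 9.37% in bin 1 and 26.1 to 33.3% in bin 5. Ranges over draws given for single genes below include the draw reported.

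The pericentral drug-metabolising enzymes were higher. Cyp2e1 stood at 8095 CPM in positive cells and 4667 CPM in Cyp2b9-zero cells, a 1.73-fold difference (log2 ratio 0.79, 0.72 to 0.87), against 4618 CPM in the HFD and 1362 CPM in the ND library. Cyp2c29 stood at 1055 CPM in positive and 556 CPM in Cyp2b9-zero cells (log2 ratio 0.92, 0.71 to 1.13), with 544 CPM in HFD and 506 CPM in ND. Thus the Cyp2b9-zero cells were near the HFD library in Cyp2e1, and near both other libraries in Cyp2c29. They are a part of their library with fewer cells towards the pericentral end, while HFD and ND are whole libraries. These levels are therefore not a comparison of like with like. Cyp2c37, Cyp2c50 and Cyp2c54, further P450 enzymes of the family, had log2 ratios of 0.72, 0.69 and 0.72. Cyp1a2, which metabolises caffeine, was at 0.64 and Cyp3a11, a main steroid and drug oxidase, at 0.61. Oat, a pericentral ornithine aminotransferase, reached 1570.3 CPM in positive and 898 CPM in Cyp2b9-zero cells (log2 ratio 0.81). Gulo, the last enzyme of vitamin C synthesis, was at 0.60.

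By list, 6 of 11 measured pericentral genes of the score were at least 1.5-fold higher, 0 were lower, and their median log2 ratio was 0.60. Of 16 other pericentral genes that were no part of the score, 5 were higher and 0 lower, with 15 above equality and a median of 0.44. These values stand beside a median of 0.02 over all 1120 measured genes, of which 1.88% were higher and 605 were above equality.

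Part of the periportal genes were lower, chiefly those that make up the score. Serpina1e, a serine protease inhibitor of the alpha-1-antitrypsin family, stood at 1011 CPM in positive cells and 2299 CPM in Cyp2b9-zero cells, a 2.27-fold difference (log2 ratio -1.18, -1.37 to -1.00), against 4286 CPM in HFD and 6292 CPM in ND. Cyp2f2 stood at 189 CPM in positive and 422 CPM in Cyp2b9-zero cells (log2 ratio -1.15, -1.62 to -0.73), with 1225 CPM in HFD and 1740.4 CPM in ND. For both genes the positive cells had the lowest of the 4 values and the ND library the highest. The histidine-degrading enzyme Hal was at a log2 ratio of -0.96, Etnppl at -1.16, the lipid droplet protein Hsd17b13 at -0.74 and the glutaminase Gls2 at -0.65. Of 10 measured periportal genes of the score, 5 were at least 1.5-fold lower, 0 were above equality, and the median was -0.60. Of 21 other periportal genes 1 was lower, 6 were above equality and the median was -0.14. Gpt, a periportal alanine aminotransferase, was among those above equality, at 0.45 (0.00 to 0.87). Among all measured genes 1.96% were at least 1.5-fold lower.

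The major urinary proteins, pheromone carriers made in large amounts by the mouse liver, differed in both directions. Mup17 stood at 1212 CPM in positive cells and 584 CPM in Cyp2b9-zero cells, a 2.08-fold difference (log2 ratio 1.05, 0.86 to 1.25), against 5021 CPM in HFD and 250.5 CPM in ND. Mup11 was also higher, with 1917 CPM in positive and 1187 CPM in Cyp2b9-zero cells (log2 ratio 0.69, 0.54 to 0.84). Mup20, known as darcin, was 1.71-fold lower, with 7702 CPM in positive and 13140.4 CPM in Cyp2b9-zero cells (log2 ratio -0.77, -0.84 to -0.70), against 22007 CPM in HFD and 23506 CPM in ND. Only 70.1% of the 90-base windows in the last 400 bases of Mup17 transcripts, and 41.2% of those of Mup11, occur in no other gene, so the split of reads among Mup genes is uncertain. For Cyp2b9 it was 100%, so its reads are not expected to mix with those of its relatives.

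Cd36 and Cyp4a10 of the PPARα target list and Bdh1 and Eci2 of the fatty acid oxidation list were past 1.5-fold, that is 2 of 20 measured genes in each list, beside 1.88% of all measured genes. Cd36, a fatty acid transporter, stood at 256 CPM in positive and 124 CPM in Cyp2b9-zero cells (log2 ratio 1.05, 0.60 to 1.47), against 45.6 CPM in HFD and 48.3 CPM in ND. Cyp4a10, a fatty acid hydroxylase under the nuclear receptor PPARα, stood at 295 CPM in positive and 163 CPM in Cyp2b9-zero cells (log2 ratio 0.87). Bdh1, which interconverts ketone bodies, was at 0.67 and Eci2, an isomerase of unsaturated fatty acid oxidation, at 0.61. Over the 20 draws Cd36 lay between 0.75 and 1.29, Cyp4a10 between 0.27 and 0.93, Eci2 between 0.17 and 0.64 and Bdh1 between 0.03 and 0.67, so the value reported for Bdh1 is its highest. In the PPARα list 0 were lower and 18 above equality, with a median of 0.19, and in the fatty acid oxidation list 0 were lower, with a median of 0.13. Of all 1120 measured genes 605 were above equality, with a median of 0.02. After the zone matching described below, 13 of the 20 PPARα genes were above equality, with a median of 0.08. The matched median of the fatty acid oxidation list was 0.04, and 582 of the 1120 genes were then above equality. Hsd17b7, an enzyme of cholesterol synthesis, was at 0.62 and was the 1 of 13 cholesterol genes past 1.5-fold, with a list median of 0.17. Its range over the draws was -0.06 to 0.62.

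Zone matching set the Cyp2b9-zero cells to the same mix of zone bins as the positive cells. Within each bin the zone scores of the groups then differed by -0.03 to 0.06. Genes at least 1.5-fold higher numbered 1 (0.0893%) after matching, and genes at least 1.5-fold lower 9 (0.804%). Over the 20 draws these numbers were 0 to 13 and 5 to 14. Of the 21 genes that had been higher, 1 stayed past 1.5-fold, and of the 22 lower ones 7 did. None of the 17 zone-list genes did so. The median log2 ratio of the 21 was 0.30 after matching, against 0.69 before, and that of the 22 was -0.42, against -0.68 before. Cyp1a2 was at -0.06, Cyp3a11 at -0.14, Gulo at -0.07, Hal at 0.13 and Cyp2f2 at -0.05, all with intervals that reached both sides of 0. Genes of the score are matched by construction, but the 16 pericentral genes outside it also had a median of 0.10 after matching, against 0.44 before. For the 21 periportal genes outside the score it was 0.04, against -0.14.

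**Figure D2:**
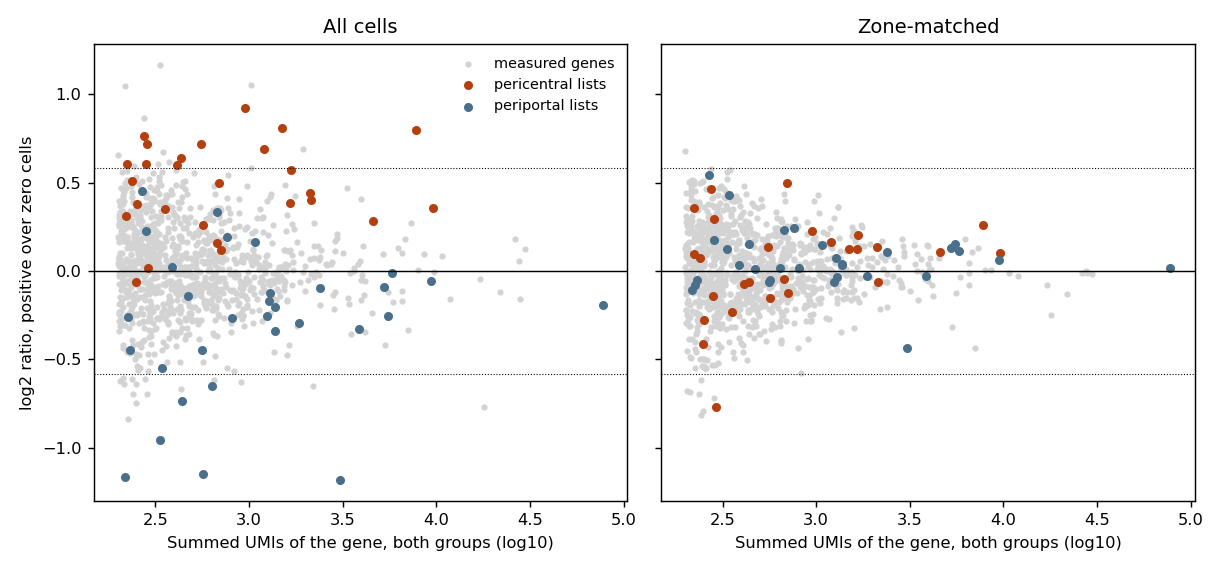
Log2 ratio of Cyp2b9-positive over Cyp2b9-zero cells for the measured genes against their summed UMIs (log10), before (left) and after zone matching (right); dotted lines mark 1.5-fold, and Tmsb4x lies below the axis. Most pericentral genes stand above 0 and most periportal genes below it on the left; on the right the list medians are 0.10 and 0.10 (pericentral) and 0.08 and 0.04 (periportal), with Glul apart at -0.77.

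Matching left part of some differences, which were smaller in the median draw than in the one reported for Cyp2e1, Mup17, Bdh1, Cyp4a10, Hsd17b7, Eci2 and Serpina1e. Cyp2e1 kept a log2 ratio of 0.26 (0.19 to 0.33), with 0.14 to 0.28 over the draws, and was higher in positive cells in 5 of 5 bins, with 11896 CPM in positive and 10262 CPM in Cyp2b9-zero cells of bin 5. Its log2 ratio was 1.53 in bin 1, 1.20 in bin 2 and 0.30, 0.20 and 0.21 in bins 3 to 5. In bins 1 and 2 depth differed between the groups, as given below, and its part was not tested. Cyp2e1 is a gene of the score, so its matched value is not independent of the matching. Mup17 kept 0.43 (0.23 to 0.62), with 0.02 to 0.57 over the draws and a median of 0.21. In bin 5 it stood at 2605 CPM in positive and 1674 CPM in Cyp2b9-zero cells. In bin 3 it stood at 339 CPM in positive and 518 CPM in Cyp2b9-zero cells. Bdh1 was at 0.57 (0.21 to 0.94), the highest of the draws, whose median was 0.17 and lowest value -0.08. Cyp4a10 was at 0.58 (0.18 to 0.97) with a median of 0.29 over the draws, Hsd17b7 at 0.42 (0.07 to 0.78) with a median of 0.05 and Eci2 at 0.41 (0.03 to 0.79) with a median of 0.18. Their lowest values over the draws were -0.01 for Cyp4a10, -0.25 for Hsd17b7 and -0.02 for Eci2. Cd36 was at 0.36, with an interval from -0.07 to 0.78, and at 0.04 to 0.61 over the draws.

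On the lower side Serpina1e kept -0.44 (-0.62 to -0.25), with -0.51 to -0.08 over the draws, and was lower in positive cells in 5 of 5 bins. At the periportal end it stood at 4101 CPM in positive and 4941 CPM in Cyp2b9-zero cells, and at the pericentral end at 214 CPM in positive and 399 CPM in Cyp2b9-zero cells. Mup20 kept -0.25 (-0.32 to -0.18), with -0.37 to -0.07 over the draws. It was lower in positive cells of bins 1 and 2, with 14272 CPM in positive and 24384 CPM in Cyp2b9-zero cells of bin 1, and higher in bin 3, with 9349 CPM in positive and 7396 CPM in Cyp2b9-zero cells. Depth differed within the bins, with median UMIs of 4044 in positive and 5049.5 in Cyp2b9-zero cells of bin 1, and 2484 and 3769 in that order in bin 2. In Cyp2b9-zero cells Mup20 stood at 7906 CPM under 2000 UMIs and at 16454 CPM from 2000 UMIs upwards, and the part of depth in the difference was not tested. Gstp1, a glutathione transferase, kept -0.38 (-0.68 to -0.09), with -0.45 to 0.05 over the draws, and was lower in 5 of 5 bins, though only 9.97% of its windows occur in no other gene.

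**Figure D3:**
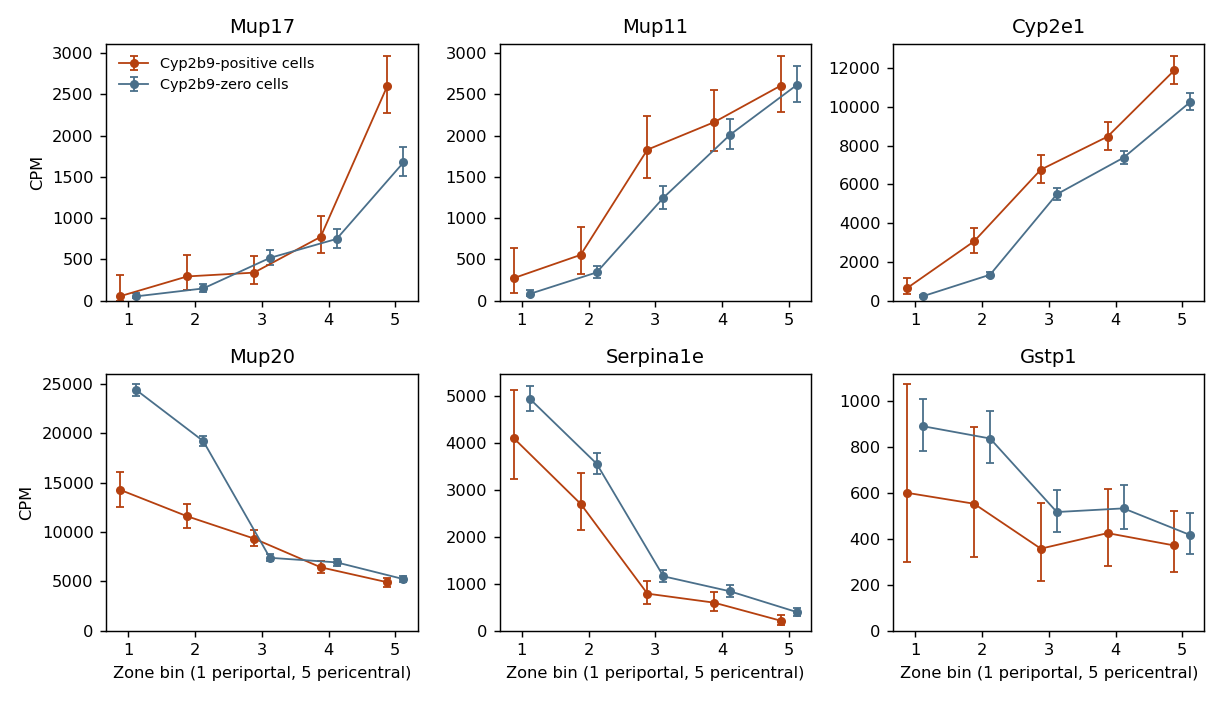
Level (CPM, with 95% exact Poisson intervals) of 6 genes in Cyp2b9-positive and Cyp2b9-zero cells of each zone bin, from periportal (1) to pericentral (5). Bins 1 and 5 stand in the same order in both groups for each gene, with Cyp2e1 at 11896 CPM in positive and 10262 CPM in Cyp2b9-zero cells of bin 5 and Serpina1e at 214 CPM in positive and 399 CPM in Cyp2b9-zero cells.

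The genes past 1.5-fold after matching were mostly near the count minimum, and those named next were chosen after their values were seen. C1d, a cofactor of the nuclear exosome, was the 1 higher gene, with a log2 ratio of 0.68 on 49 UMIs in positive and 151 UMIs in Cyp2b9-zero cells. Of the 9 lower genes, Pecr, H2afj, Tma7, Actr2, Ndufb10 and Tmem258 had 24 to 32 UMIs in positive cells and matched log2 ratios between -0.82 and -0.68. With all UMIs of the same cells, without matching, C1d was at 0.33 and these 6 between -0.50 and -0.07. Over the draws the matched value of C1d ran between -0.67 and 0.68, with a median of -0.02. Psmb3, a proteasome subunit, passed only after matching, at -0.62, with -0.79 to 0.05 over the draws. Glul also passed only after matching, at -0.77 (-1.21 to -0.33), but ran between -1.13 and 1.20 over the draws, with a median of 0.01. In bin 5 it stood at 451 CPM in positive and 807 CPM in Cyp2b9-zero cells. Glul is itself a gene of the score, so its matched value is not independent of the matching.

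Tmsb4x, thymosin beta 4, an actin-binding protein abundant in blood and endothelial cells, had 3 UMIs in positive cells and 339 in Cyp2b9-zero cells (log2 ratio -4.33, -6.84 to -2.99). Without the 29 cells that held markers of other cell types it had 3 UMIs in positive and 3 in Cyp2b9-zero cells. Its difference came from those cells.

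**Figure D4:**
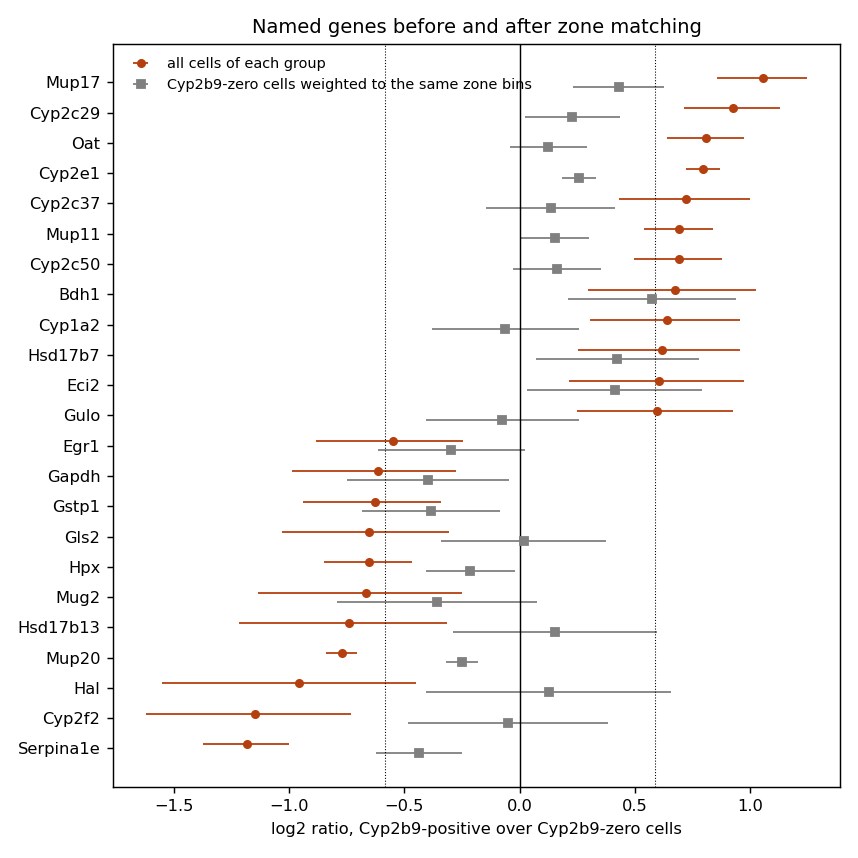
Log2 ratio of Cyp2b9-positive over Cyp2b9-zero cells with 95% counting intervals for genes with at least 300 UMIs, the 12 highest and the 12 lowest without Tmsb4x, for all cells (circles) and after zone matching (squares); dotted lines mark 1.5-fold. Every square lies inside the dotted lines, Mup17 at 0.43 and Serpina1e at -0.44 included.

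Split by depth, the differences were larger in the deeper cells. Mup17 had a log2 ratio of 0.15 (-0.22 to 0.49) in cells under 2000 UMIs and of 1.65 (1.40 to 1.90) in cells with at least 2000. Cyp2e1 had 0.40 (0.28 to 0.52) in the shallower cells and 1.09 (0.99 to 1.18) in the deeper ones. Cyp2f2 had -0.06 (-0.88 to 0.62) in the shallower cells and -1.59 (-2.21 to -1.07) in the deeper ones. Serpina1e had -0.52 (-0.87 to -0.19) in the shallower cells and -1.44 (-1.67 to -1.22) in the deeper ones. The 11 measured pericentral genes of the score had a median of 0.22 in the shallower and 0.79 in the deeper cells, and the 10 periportal genes -0.05 and -0.94 in that order.

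The other Cyp2b genes were too rare for a comparison. Cyp2b10 had 1 UMI in positive and 3 in Cyp2b9-zero cells. Cyp2b13, known like Cyp2b9 as a female-biased gene, had 5 UMIs in positive and 13 in Cyp2b9-zero cells, and 0 in both the HFD and ND libraries. With all UMIs and no matching Cyp2b13 had 25 in positive and 40 in Cyp2b9-zero cells, a log2 ratio of 1.70 (0.91 to 2.45). In the thinned UMIs it was at 0.32 (-1.18 to 1.83) after matching. Cyp2a4, a female-biased steroid hydroxylase, had 7 UMIs in positive and 18 in Cyp2b9-zero cells. With all UMIs and no matching it had 24 and 61 in that order (log2 ratio 1.04, 0.28 to 1.72). Its matched value in the thinned UMIs was 0.87 (-0.44 to 2.18). The receptor CAR, Nr1i3, had 38 UMIs in positive and 111 in Cyp2b9-zero cells (log2 ratio 0.73, 0.15 to 1.26), with 0.36 after matching (-0.18 to 0.90).

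Of 9 measured targets of CAR other than Cyp2b genes 2 were at least 1.5-fold higher, Cyp2c29 and Cyp2c37, which are both on the zone lists. None was lower and 9 were above equality, with a median of 0.39. Among all 1120 measured genes 1.88% were higher and 605 were above equality. Of the 9, 6 are on the zone lists, and the 3 others, Sult1d1, Gstt1 and Abcc2, had a median of 0.24 before and 0.26 after matching. After matching 0 of the 9 were past 1.5-fold, 7 were above equality and the median was 0.14. Targets of the related receptor PXR, 5 measured, had a median of 0.34 before and 0.14 after matching. The 11 conjugating enzymes of the glucuronosyl- and sulfotransferase families had 0 past 1.5-fold and 10 above equality, with a median of 0.35 before and 0.23 after matching. None of these 11 is on the zone lists.

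Sex-biased genes did not form a common direction. Of 4 measured female-biased genes 1 was higher, Cd36, with a median of 0.42 before and 0.25 after matching. Of 15 male-biased genes 3 were higher (Mup17, Mup11 and Cyp1a2) and 4 lower (Mup20, Serpina1e, Cyp2f2 and Gstp1), with a median of -0.12 before and -0.05 after matching. Among all measured genes 1.88% were higher and 1.96% lower. Xist, transcribed from the inactive X chromosome of females, had 0 UMIs in positive cells and 1 in Cyp2b9-zero cells, and the Y-linked gene Ddx3y had 40 in positive and 150 in Cyp2b9-zero cells.

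Among bile acid genes measured in the thinned UMIs 0 were past 1.5-fold. The 9 measured genes of bile acid synthesis had a median of 0.11 before and 0.13 after matching, and the 4 transporter genes 0.27 before and 0.15 after. Slco1b2, which takes up bile acids, stood at 2928 CPM in positive and 2119 CPM in Cyp2b9-zero cells (log2 ratio 0.47, 0.35 to 0.58) and was at 0.15 after matching. Cyp7a1, which sets the rate of bile acid formation from cholesterol, had 5 UMIs in positive and 21 in Cyp2b9-zero cells. With all UMIs and no matching Cyp7a1 had 23 in positive and 49 in Cyp2b9-zero cells (log2 ratio 1.29, 0.49 to 2.02). After matching, in the thinned UMIs, it was at -0.60 (-2.01 to 0.81). Among Cyp2b9-zero cells Cyp7a1 was higher in bin 5 than in bin 1, with a log2 ratio of 5.54. All of these cells together held 21 UMIs of it, and 0.5 was added to each sum, so the size of this ratio is uncertain. All UMIs brought 16 synthesis and 14 transporter genes over the count minimum, with 1 of each at least 1.5-fold higher, 0 lower, and medians of 0.31 and 0.28. Of all 3103 genes measured in this way 68 were higher and 46 lower, with a median of 0.05. Among 18 acute phase genes 0 were higher and 1 lower, beside 1.96% of all measured genes lower. The list median was -0.16 before and -0.06 after matching. The lower gene was Hpx, at 1007.5 CPM in positive and 1586 CPM in Cyp2b9-zero cells (log2 ratio -0.65, -0.85 to -0.47). Hpx was at -0.21 (-0.41 to -0.02) after matching. Among 40 nuclear-encoded genes of oxidative phosphorylation 2 were lower, Ndufb7 and Ndufb10, both under 300 UMIs, beside the same 1.96%. Of the 40, 16 were above equality with a median of -0.03. After matching 1 was lower and 10 were above equality, with a median of -0.08, beside 0.01 over all measured genes.

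**Figure D5:**
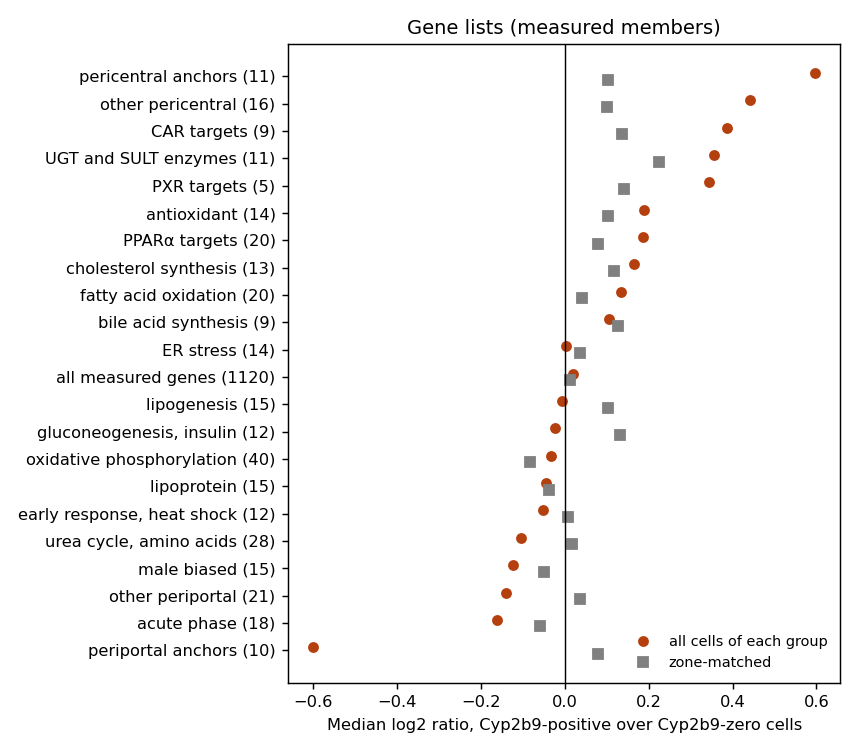
Median log2 ratio of Cyp2b9-positive over Cyp2b9-zero cells over the measured members of each gene list (number in brackets) for all cells (circles) and after zone matching (squares). The pericentral score genes lie at 0.60 and the periportal ones at -0.60 before matching, and at 0.10 and 0.08 after it.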

How the data were processed

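The authors deposited a matrix of UMI counts for each library, with Cell Ranger 5.0.0 named per the file headers; the build is mm10 in the submitters' processing notes. The sources used here state neither how barcodes were chosen nor how many mice were pooled. Total counts per library were 8753465 (HFD_HDCA), 7593447 (HFD) and 8677998 (ND) UMIs. Barcodes needed 500 genes or more and 50% or less of mitochondrial counts, and 271 of 1923 HFD_HDCA cells under 1000 UMIs were left out. Each cell was thinned to 1000 UMIs without replacement (seed 1); 20 draws were compared. Counts were summed over the cells of a group and expressed per 1000000 nuclear-encoded UMIs other than Cyp2b9 (CPM). Log2 ratios were taken after adding 0.5 to each sum, with exact conditional binomial 95% intervals; shares have Clopper-Pearson and levels exact Poisson intervals. For shares, a count of 0 was read as up to 3 cells, giving 10.7% and 0.236%, where the exact binomial bounds are 12.3% and 0.290%. The limit of 88.2 CPM is an exact Poisson bound. PCR and droplet capture are shared within the library, so intervals cover counting error only.

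Genes were measured from 200 summed counts upwards, and a fold of 1.5 was the size rule. For zone matching, Cyp2b9-zero cells were weighted to the positive cells' spread over 5 bins of the zone score; intervals of matched ratios are approximate Poisson intervals. Genes named are the 12 highest and 12 lowest ratios at a summed count of at least 300 without ribosomal, mitochondrial and unnamed models, up to 3 measured members of each of the gene lists with the largest ratios, score genes and a fixed set; others are said to be chosen afterwards. A gene that the naming rule selects is not reported here. The members, lists and rules were chosen with earlier results of these data known. Doublets were not removed; leaving out the deepest 5% of cells and cells with markers of other cell types were alternatives, beside other seeds, depths, filters, count minimums and scalings. Calculations were checked on simulated counts. Uniqueness was taken from GENCODE release M21 transcripts. Software was Python 3.11.15, numpy 2.4.6, scipy 1.17.1 and pandas 2.3.3.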

Additional observations from a re-analysis of the deposited data

How the results depend on the processing

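The Cyp2b9-positive share depended on depth and threshold, at 9.05% when cells were thinned to 500 UMIs, 27.0% at 2000 UMIs and 3.09% with at least 2 Cyp2b9 UMIs, and lay between 15.1 and 18.0% over 20 draws of the thinning. Genes at least 1.5-fold higher numbered 51 of 1351 at 2000 UMIs, 108 of 992 (with 110 lower) for at least 2 Cyp2b9 UMIs, 68 of 3103 (46 lower) with all UMIs, 73 of 2108 (81 lower) at a count minimum of 100 and 7 of 455 (7 lower) at 500. Zone matching gave 1 higher and 9 lower, and 1 and 10 on a score from all UMIs. It gave 1 and 9 without cells that held markers of other cell types. The zone score difference was 0.99 at 2000 UMIs, 0.80 for at least 2 Cyp2b9 UMIs, 0.12 within cells under 2000 UMIs and 0.15 as the pericentral share of anchor counts, which is another scale. The last 2 matched settings, the all-UMI score and the depth split were chosen after seeing the data.

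Among genes and lists past 1.5-fold before matching, signs turned under zone matching, on the all-UMI score, and without cells holding other markers, for the periportal score genes (median 0.079, 0.059 and 0.035), Cyp1a2 (-0.062, -0.15, -0.065), Gulo (-0.074, -0.093, -0.080), Hsd17b13 (0.15, 0.11, 0.12), Hal (0.13, 0.13, 0.072) and Cyp3a11 (-0.14, -0.23, -0.14), and for Gls2 under the first (0.017). Matching removes zone differences by its construction; of all 95 measured named genes 19 turned sign under it. Tmsb4x turned to 2.24 without cells holding other markers, and to 2.09 with matching as well, on 3 UMIs in each group. No paired analysis was possible because each diet had 1 library.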

Other observations

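Barcodes that the filters left out held Cyp2b9 at levels like those of the cells kept. In the HFD_HDCA library it stood at 170 CPM (121 to 232) in the 271 cells under 1000 UMIs, at 204 CPM (171 to 242) in 1087 barcodes under 500 genes and at 216 CPM (174 to 265) in 1863 barcodes with over 50% mitochondrial counts. In the 1652 cells kept, with all UMIs, it stood at 207 CPM (194 to 220).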
